A study of Homo sapiens with 9 samples.

Results

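Visceral endoderm secreted and uptake genes are 10 genes by which the hypoblast and its descendant, the yolk sac endoderm, feed the early embryo: the apolipoproteins APOA1, APOA2, APOB, APOE and APOC1, the serum carriers TTR and AFP, the endocytic proteins CUBN and DAB2, and the protease CTSE. They were taken by symbol from the 40332 symbols of the deposited count table, and all 10 were found. The RNA-seq libraries, 3 in each of 3 groups, were made from wild-type H1 cells, a long-established line derived from a human embryo. The PXGL libraries came from cells held in the naive pluripotent state by that medium, the N2B27 libraries from such cells in the N2B27 basal medium, and the third group from cells given EPZ-6438 at 5 µM in N2B27 over 3 days. EPZ-6438 blocks the catalytic activity of the histone methyltransferase EZH2. The sources used here do not give the time in N2B27 without the inhibitor. All libraries share 1 genotype and 1 cell line, and no cells were described as sorted, so fewer cells of a type and less RNA per cell cannot be told apart in these bulk samples. EZH2 is the enzyme of the repressive complex PRC2, and the series asks whether this complex holds back primitive endoderm fate.

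Visceral endoderm takes up maternal protein and lipid at its apical face and secretes lipoproteins and serum proteins toward the embryo, work that the liver and gut later repeat. Cubilin, encoded by CUBN, binds ligands at the cell surface and depends on amnionless (AMN) and megalin (LRP2) for anchoring and uptake, while DAB2 is the clathrin adaptor that carries megalin inward. APOB is the structural protein of large lipoproteins and needs the transfer protein MTTP to receive lipid. In this tissue the genes for secreted proteins are activated by GATA factors, HNF4A and FOXA factors.

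The letters upstream of the start sites are shown for 3 members because they set APOE, the member with by far the most counts, beside 2 members with almost none. RefSeq windows (GRCh38.p14) were at hand for 7 members, APOA2, CTSE, AFP, DAB2, CUBN, APOE and APOC1. Each stretch reads 5′ to 3′ toward the start on the gene's own strand, and bases inside an annotated exon of the gene were left off. APOE lies on the plus strand at chr19:44905546-44905753, APOA2 on the minus strand at chr1:161223632-161223878 and CUBN on the minus strand at chr10:17129818-17130061. Capitals mark matches to the motifs named after the sequences.
APOE: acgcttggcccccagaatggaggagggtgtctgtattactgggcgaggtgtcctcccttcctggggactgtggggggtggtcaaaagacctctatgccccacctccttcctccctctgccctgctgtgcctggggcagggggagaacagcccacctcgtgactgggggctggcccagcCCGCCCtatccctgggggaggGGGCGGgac
APOA2: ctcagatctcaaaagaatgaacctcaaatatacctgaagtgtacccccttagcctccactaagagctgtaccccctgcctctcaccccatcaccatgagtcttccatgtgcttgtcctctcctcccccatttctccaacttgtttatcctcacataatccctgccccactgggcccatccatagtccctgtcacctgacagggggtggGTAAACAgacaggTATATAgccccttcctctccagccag
CUBN: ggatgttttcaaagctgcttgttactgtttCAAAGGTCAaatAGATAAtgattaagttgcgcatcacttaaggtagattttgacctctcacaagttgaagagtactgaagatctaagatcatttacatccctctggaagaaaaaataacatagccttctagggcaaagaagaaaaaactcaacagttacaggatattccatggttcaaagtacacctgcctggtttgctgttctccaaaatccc
Motifs were chosen after the sequences were seen and searched on both strands in the 250 bases before each start. They were GGGCGG for SP and KLF factors, TGTTTAC or TATTTAC for FOXA, CAAAGTCCA or CAAAGGTCA for HNF4, AGATAA or TGATAA for GATA factors, and TATAAA or TATATA as a TATA box. GTTAAT was also searched as an HNF1 half-site and was found in 6.23% of windows. The first APOE window held 2 GGGCGG matches, a motif present in 42.6% of 35116 windows of this length, and no match to the FOXA, HNF4 or GATA motifs. APOA2 held a FOXA match, found in 5.27% of windows, and a TATA box, found in 12.8%. CUBN held an HNF4 match, found in 0.664%, with a GATA match, found in 14.6%. The CTSE window held 1 HNF1 match, 1 FOXA match and 1 GATA match, and the AFP window held 1 HNF1 match and a TATA box. DAB2 held 1 HNF1 match and 2 GGGCGG matches, and APOC1 held 1 GGGCGG match. The DAB2 window was exonic in all 250 bases and the APOC1 window in 185. The DAB2 and APOC1 matches, the CTSE GATA match and the AFP TATA box did not lie wholly outside annotated exons. CpG pairs were scarce in most of these windows. The observed count over that expected from C and G content was 0 in APOA2, 0.111 in CUBN, 0.160 in AFP, 0.192 at the first APOE start, 0.290 in CTSE, 0.306 in APOC1 and 0.742 in DAB2, against a median of 0.558 over all windows. At the later APOE starts this ratio was 0.355 and 0.742. These matches describe the letters and are not measured binding sites.

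The libraries held 14482124 to 18358519 counts, so that 3 counts equal 0.163 to 0.207 CPM, counts scaled to a common library size. Levels are CPM after TMM scaling, a correction for differences in library composition, as mean ± SD with n = 3 libraries per group. All 10 embryonic stem cell markers checked averaged over 1 CPM in every group. Among them, POU5F1, NANOG and SOX2 fell with the inhibitor, to 1177 ± 14.2, 353 ± 12.4 and 63.6 ± 7.497 CPM from 1425 ± 28.8, 455 ± 10.8 and 116 ± 4.90 CPM in N2B27. PXGL replicate 1 stood apart from its group: its chi-square per degree of freedom against the other PXGL libraries was 19.6 and 26.3, against 2.57 to 3.66 for every other replicate pair. EZH2 itself was at 78.2 ± 1.49 CPM in PXGL, 71.9 ± 2.85 in N2B27 and 82.4 ± 3.61 with the inhibitor, a rise over N2B27 of 0.20 on the log2 scale (edgeR adjusted p = 0.0415). EPZ-6438 acts on the EZH2 protein, so this level is no check of its effect.

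Counts divided the 10 genes into 4 that were read in every library and 6 that were nearly silent. APOE, APOC1, DAB2 and APOB passed the expression filter with 86529, 4049, 4701 and 372 counts over the 9 libraries. CUBN had 13 counts, CTSE had 11, APOA2 and AFP had 2 each, and APOA1 and TTR had none. APOE alone made up 88.9% to 91.9% of the counts of the 10 genes in each library. Divided by the length of the principal transcript, APOE averaged 616 ± 115 CPM per kilobase in PXGL, APOC1 56.5 ± 10.4, DAB2 8.64 ± 0.290 and APOB 0.0390 ± 0.0105. That order was the same in N2B27 and with the inhibitor, and in no group did the libraries of neighbouring genes in it overlap.

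APOE encodes a small exchangeable apolipoprotein that carries lipid to receptors of the LDL receptor family. Its gene lies on chromosome 19 from 44905754 to 44909393 (hg38, GENCODE 29, plus strand). It was at 905, 675 and 653 CPM in the PXGL libraries, at 528, 545 and 536 in N2B27, and at 528, 467 and 472 with EPZ-6438. The PXGL libraries were the highest, with replicate 1 above the other two, and neither of the other groups reached them. APOE fell 1.39-fold from PXGL to N2B27 (log2 fold change -0.47, SE 0.10, adjusted p = 0.000716 by edgeR's quasi-likelihood test). Without PXGL replicate 1 the log2 fold change was -0.31, and the call was kept. With the inhibitor APOE was 489 ± 33.8 CPM against 536 ± 8.61 without it. This difference did not pass the test (log2 -0.13, SE 0.10, adjusted p = 0.352), although the closest libraries, at 527.8 and 528.3 CPM, just missed overlapping. As a plain percent of all counts the groups did overlap, with 0.0531% in inhibitor replicate 1 and 0.0517% in N2B27 replicate 1. The difference did pass, at adjusted p = 0.00233, when only these groups were fitted, and at 0.00248 without PXGL replicate 1, with log2 values of -0.13 and -0.14. Against PXGL, APOE with the inhibitor was 1.52-fold lower (log2 -0.61, adjusted p = 7.53e-05).

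APOC1, an inhibitor of lipoprotein uptake and of lipid transfer, is encoded just downstream of APOE on the same strand, from 44914247 to 44919349. The PXGL libraries held 44.4, 41.4 and 30.8 CPM, the N2B27 libraries 16.8, 19.7 and 18.7, and the inhibitor libraries 26.3, 22.1 and 24.9. The inhibitor group lay between the others without overlap on either side. APOC1 fell 2.11-fold from PXGL to N2B27 (log2 -1.08, SE 0.13, adjusted p = 2.21e-06) and rose 1.32-fold with the inhibitor (log2 0.40, SE 0.13, adjusted p = 0.0335). The rise was no longer called when N2B27 replicate 1, 2 or 3 or inhibitor replicate 1 or 3 was left out, with adjusted p of 0.0535 to 0.141, while its log2 value stayed between 0.34 and 0.47 over all left-out libraries. With the inhibitor APOC1 remained 1.60-fold below PXGL (log2 -0.67, adjusted p = 0.000218). APOC1P1, a pseudogene of APOC1 farther downstream, held 13, 2 and 9 counts over the groups in the same order. APOC1 held 2124, 803 and 1122 counts, and how reads were divided between the copies is uncertain.

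The neighbours APOE and APOC1 did not change in proportion. For each 100 APOE counts there were 5.26 ± 0.769 APOC1 counts in PXGL, 3.43 ± 0.230 in N2B27 and 4.99 ± 0.270 with the inhibitor (n = 3 each). The N2B27 libraries were below both other groups without overlap, and the exact two-sided permutation test gave p = 0.1 for each, the smallest value that 3 against 3 libraries allow. Other genes around the cluster were flat or lower with the inhibitor. NECTIN2, a cell adhesion gene upstream, fell 1.39-fold with EPZ-6438 (log2 -0.47) to 102 ± 4.80 CPM. TOMM40, a mitochondrial import gene, was at 253 ± 19.2 CPM against 287 ± 11.9, BCAM at 10.7 ± 0.199 against 11.3 ± 0.947 and CLPTM1 at 87.0 ± 5.31 against 97.3 ± 1.34, none of which passed. The remaining apolipoproteins of the cluster, APOC2 and APOC4, had 9 or fewer counts in all.

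APOB lies on chromosome 2 from 21001429 to 21044073 on the minus strand. From PXGL to N2B27 it moved against the other tested members. The PXGL libraries held 0.603, 0.383 and 0.666 CPM (11, 7 and 12 counts), the N2B27 libraries 3.55, 7.24 and 5.00 CPM (51, 103 and 75 counts), and the inhibitor libraries 2.21, 2.80 and 2.30 CPM (33, 46 and 34 counts). N2B27 was highest, with replicate 2 well above the other libraries, and the 3 groups did not overlap. APOB rose 9.44-fold from PXGL to N2B27 (log2 3.24, SE 0.34, adjusted p = 5.41e-07). With EPZ-6438 it fell 2.15-fold from N2B27 (log2 -1.10, SE 0.29, adjusted p = 0.00907), still 4.39-fold above PXGL (adjusted p = 9.17e-05). Without N2B27 replicate 2 the log2 value with the inhibitor was -0.81 and was not called (adjusted p = 0.0811). APOB is long, so its level per kilobase in N2B27, 0.373 ± 0.132 CPM, remained far below that of the other tested members. MTTP, which loads lipid onto APOB, had 3 counts, all with the inhibitor.

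**Figure D1:**
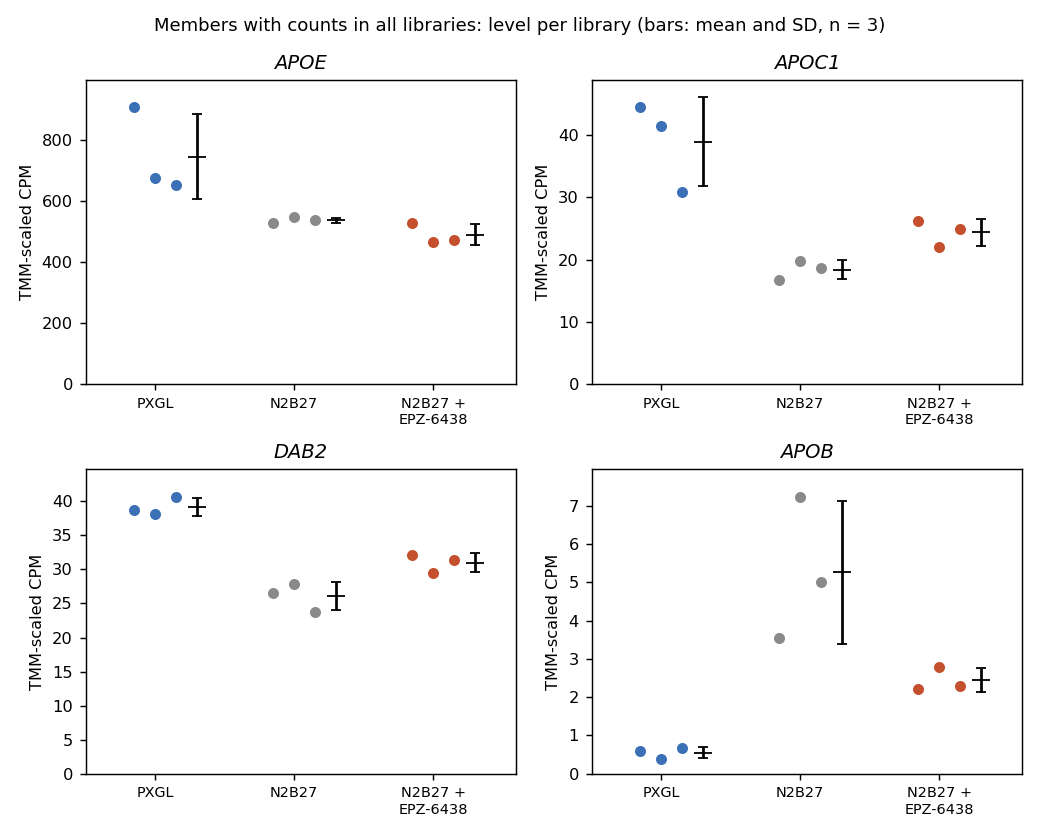
TMM-scaled CPM (vertical axes, from 0) of APOE, APOC1, DAB2 and APOB in each library of the 3 groups (points), with the mean and SD of 3 libraries (bars). APOE, APOC1 and DAB2 are highest in PXGL, while APOB is highest in N2B27 and lowest in PXGL.

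The high-density lipoprotein genes APOA1 and APOA2, major secreted products of yolk sac and liver, were not detected beyond a few counts. APOA1 (chromosome 11, 116835751 to 116837950) had no count in any library, which allows up to 0.0559 CPM in PXGL, 0.0675 in N2B27 and 0.0652 with the inhibitor at 3 counts over a group. These limits cover counting error only. APOA2 (chromosome 1, 161222292 to 161223631) had 2 counts in inhibitor replicate 1 and none in the other 8 libraries. In the APOA1 cluster, APOA4 and APOC3 also had no count and APOA5 had 1, and the antisense transcript APOA1-AS had 6. The flanking genes BUD13, ZPR1, SIK3 and PAFAH1B2 were read at 18.1 ± 2.26, 53.6 ± 2.86, 29.8 ± 1.17 and 129.8 ± 4.90 CPM with the inhibitor, none of them called against N2B27. Around APOA2, the mitochondrial genes TOMM40L and SDHC were likewise read, at 21.8 ± 1.21 and 110.05 ± 4.95 CPM, and not called, while NR1I3 and FCER1G were below the filter.

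The serum carriers were equally low. TTR, the thyroid hormone and retinol carrier transthyretin (chromosome 18, 31557010 to 31599021), had no count in any library, with the same upper limits as APOA1. Its neighbour DSG2 was at 339.7 ± 4.40 CPM with the inhibitor and not called against N2B27. B4GALT6, on the other side, fell from 40.3 ± 2.02 to 30.3 ± 3.99 CPM (log2 -0.41, adjusted p = 0.00894). AFP, the fetal albumin (chromosome 4, 73431138 to 73456174), had 1 count in N2B27 replicate 2 and 1 in inhibitor replicate 2. The adjacent albumin genes ALB and AFM had 3 counts, all in PXGL, and none. Farther out, RASSF6 had 3, 4 and 19 counts in PXGL, N2B27 and the inhibitor group, and ANKRD17 was at 216 ± 6.98 CPM with the inhibitor and not called. Neither carrier could be compared between groups at this depth.

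Of the uptake genes, DAB2 was read in every library and CUBN was barely detected. DAB2 (chromosome 5, 39371675 to 39462300, minus strand) was at 38.7, 38.2 and 40.7 CPM in PXGL, 26.6, 27.9 and 23.8 in N2B27, and 32.2, 29.5 and 31.4 with the inhibitor. The groups did not overlap, and the inhibitor group lay between the others. DAB2 fell from PXGL to N2B27 (log2 fold change -0.59, SE 0.09, adjusted p = 2.95e-05). With the inhibitor it was 1.19-fold above N2B27, which did not pass (log2 0.25, SE 0.09, adjusted p = 0.0541). This value lay close to the threshold and passed when only those groups were fitted (0.0210), without PXGL replicate 1 (0.0187), with total counts as the only scaling (0.0335) and with a stricter low-count filter (0.0491). DAB2 with the inhibitor was 1.26-fold below PXGL (adjusted p = 0.00338). The complement gene C9, which overlaps DAB2 on the same strand, had 3 counts in all.

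CUBN (chromosome 10, 16823966 to 17129817) had 2, 0 and 5 counts in PXGL, none in N2B27, and 5, 0 and 1 with EPZ-6438. The inhibitor group was 1.89-fold above N2B27 when N2B27 is set to 3 counts over the group. This ratio leaves out the counting error of the 6 inhibitor counts, so it is not a lower bound. The libraries overlapped at 0, and the exact two-sided permutation test gave p = 0.4. The receptor's partners were read, and they moved apart. Megalin (LRP2) was at 0.954 ± 0.551 CPM in PXGL, 1.70 ± 1.03 in N2B27 and 9.61 ± 0.855 with the inhibitor, a 5.64-fold rise over N2B27 (SE of the log2 value 0.37, adjusted p = 0.000121). AMN fell 3.94-fold from PXGL to N2B27, from 2.09 ± 0.162 to 0.521 ± 0.372 CPM, and was at 0.350 ± 0.220 CPM with the inhibitor, a difference that did not pass. With the inhibitor, libraries held reads of megalin and of DAB2, few of amnionless and almost none of cubilin.

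CTSE encodes the intracellular aspartic protease cathepsin E (chromosome 1, 206009264 to 206023909). It had no count in PXGL, 1, 0 and 0 counts in N2B27 and 0, 8 and 2 counts with the inhibitor. The ratio of inhibitor to N2B27 was 9.45 with a counting interval (95%) of 1.34 to 410.3, but 8 of the 10 counts came from 1 library, the groups overlapped at 0, and the exact two-sided permutation test gave p = 0.4. Fitted without a low-count filter, CTSE passed against PXGL (edgeR adjusted p = 0.0368) and not against N2B27 (0.279). AFP, APOA2 and CUBN passed in no comparison of that fit.

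**Figure D2:**
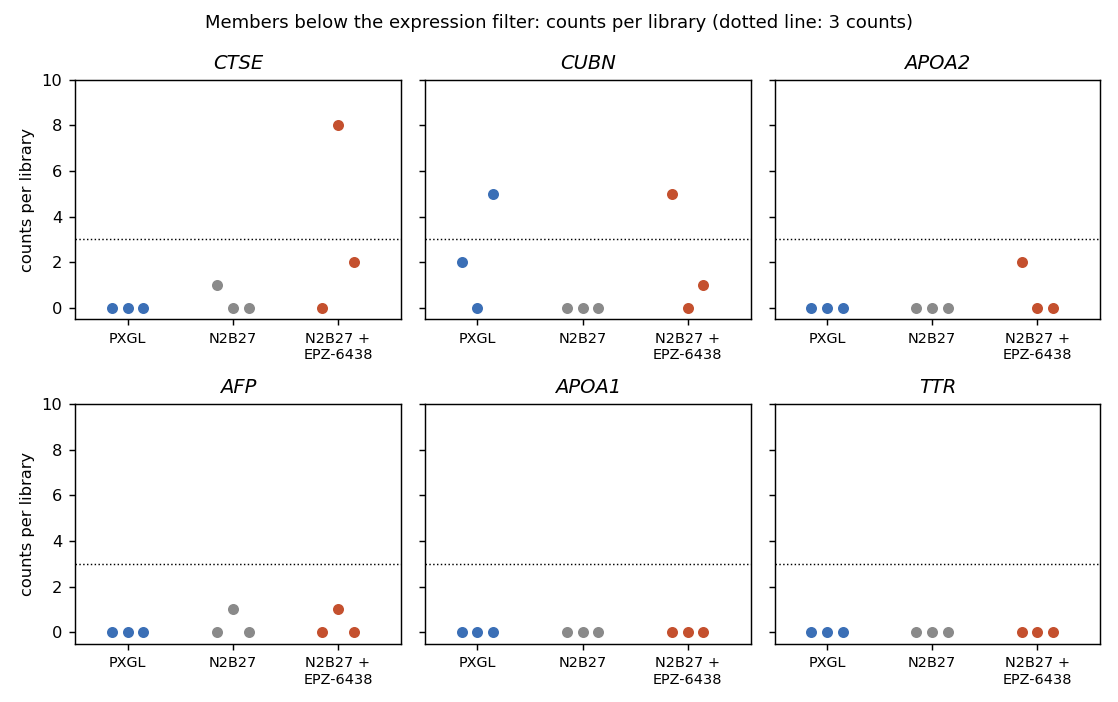
Counts per library (vertical axis) of the 6 members below the expression filter in the 3 groups (points), with a dotted line at 3 counts. Only CTSE, with 8 counts in 1 inhibitor library, and CUBN, with 5 counts in 1 PXGL and 1 inhibitor library, exceed the line.

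The calls among the 4 tested members are set here against those over all 15179 genes tested. From PXGL to N2B27 all 4 were called, 3 lower and 1 higher, where 56% of all genes were called in either direction, 28.7% lower and 27.3% higher. With the inhibitor against N2B27, 1 rose and 1 fell, where 24.7% of genes were called, 14.2% higher and 10.6% lower. With the inhibitor against PXGL all 4 were called, 3 lower and 1 higher, against 56.1% of genes. The 3 comparisons share their groups and are not independent of each other. Groups did not overlap for any of the 4 in any comparison, which held for 46.4% of all genes with the inhibitor against N2B27, 60.8% for N2B27 against PXGL and 60.7% for the inhibitor against PXGL. The 4 passed the filter because they had counts, so they do not speak for the 6 that did not.

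**Figure D3:**
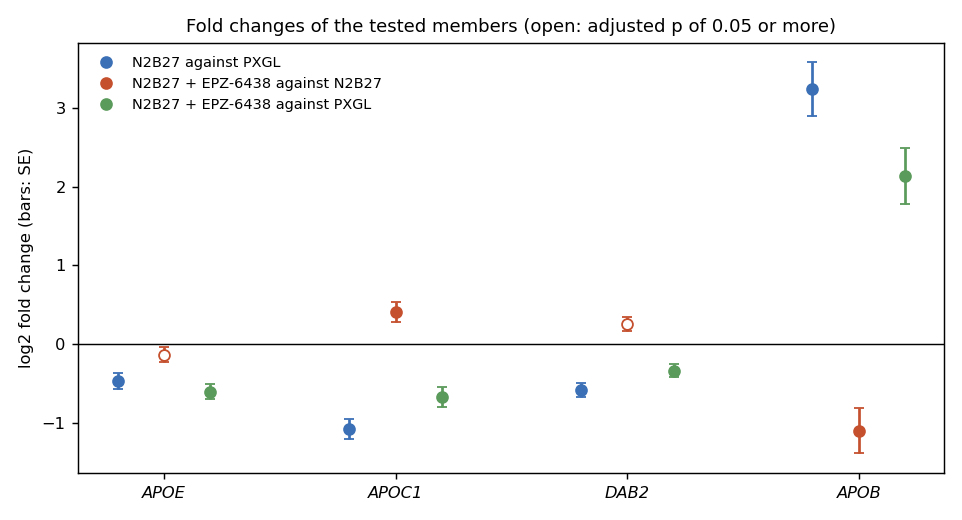
Log2 fold change (vertical axis, bars are SE) of the 4 tested members in the 3 comparisons, with open points where adjusted p was 0.05 or more. APOB has the opposite sign to APOC1 and DAB2 in every comparison, and the inhibitor values of APOE and DAB2 against N2B27 are open.

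Genes with the most similar pattern were sought among those of comparable mean level, by the distance between their pairs of log2 fold changes (N2B27 against PXGL, and inhibitor against N2B27) over the 3 groups. FGF19, an endocrine FGF, was nearest to APOB at a distance of 0.19, followed by the potassium channel gene KCNMA1 at 0.28. PDXDC1 and CTTN lay 0.02 and 0.04 from APOE. GGT7 and RALGPS1 were the nearest to APOC1, and OTUD3 and IQGAP3 to DAB2, all at distances of 0.0154 or less among 8199 and 8220 candidates.

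The wider group of serum protein genes shared the silence of TTR, AFP and APOA1. Of 28 further apolipoproteins and serum proteins, only clusterin (CLU) passed the filter. CLU rose 1.39-fold with the inhibitor, from 56.1 ± 4.13 to 77.7 ± 5.88 CPM (log2 0.47). The vitamin A carrier RBP4, transferrin (TF) and alpha-1-antitrypsin (SERPINA1) had 10, 16 and 4 counts over the inhibitor libraries, against 7, 21 and 0 in N2B27. APOH, FGB, FGG, GC and SERPINC1 had none in any library. Liver and gut markers were also low. The 10 hepatocyte markers summed to 6.12 to 11.3 CPM per library over the 3 groups, with 9 of them averaging under 1 CPM in each group. The 8 enterocyte markers summed to 5.08 to 14.5 CPM, with 7 under 1 CPM. Macrophages express APOE and APOC1 strongly, and the 10 macrophage markers summed to 2.30 to 3.38 CPM in PXGL, 0.400 to 0.765 in N2B27 and 0.745 to 1.88 with the inhibitor, with C1QB at 0 in all libraries.

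Of 33 transcriptional regulators 24 were tested, and with the inhibitor 8 rose, 2 fell and 14 did not pass (the median of the 24 log2 fold changes was 0.21, against 0.01 over all genes, of which 14.2% rose and 10.6% fell). Without PXGL replicate 1, 11 of 26 rose and 4 fell. GATA6, NR2F1 and EOMES averaged under 1 CPM in PXGL and N2B27, so they could have passed the filter through the inhibitor libraries alone. Their rises are then not independent of being tested, and the count of genes that rose and the median carry this limit. HNF4A, the nuclear receptor that drives apolipoprotein genes in visceral endoderm, fell 3.53-fold from PXGL to N2B27, from 29.4 ± 4.27 to 8.30 ± 0.319 CPM, and rose 2.53-fold with the inhibitor to 21.0 ± 0.817 CPM (log2 1.34, SE 0.13, adjusted p = 7.84e-07). GATA6 rose 10.8-fold with the inhibitor to 7.96 ± 1.65 CPM, GATA4 rose to 22.7 ± 0.608 from 13.96 ± 0.876 CPM, and EOMES rose 5.23-fold to 2.31 ± 0.672 CPM. The orphan receptor gene NR2F1 had 8 counts in PXGL. It went from no count in N2B27 to 63 counts with the inhibitor, 19.9-fold higher when N2B27 is set to 3 counts over the group. The haematopoietic and endodermal factor HHEX fell 22.7-fold from PXGL to N2B27 and rose 4.38-fold with the inhibitor, to 1.94 ± 0.259 CPM. ZHX2, a repressor of AFP in the adult liver, rose 5.72-fold from PXGL to N2B27 and reached 7.41 ± 1.30 CPM with the inhibitor. FOXA2 and SOX17 remained below the filter, with 40 and 32 counts over the inhibitor libraries against 7 and 1 in N2B27 and 22 and 6 in PXGL. FOXA1 had no count with the inhibitor. FOXA3 was the FOXA gene that could be tested, at 11.5 ± 1.48, 16.1 ± 3.40 and 11.8 ± 0.501 CPM in PXGL, N2B27 and the inhibitor group, and it fell with the inhibitor (log2 -0.44, adjusted p = 0.0432). The other regulator that fell was SALL4, from 241 ± 0.627 to 192 ± 3.54 CPM. FOXA3 and SALL4 are named after their values were seen. From PXGL to N2B27, 9 regulators rose, 8 fell and 7 did not pass (median -0.10, against -0.03 over all genes, of which 27.3% rose and 28.7% fell).

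The hypoblast markers, 13 genes that include GATA6, PDGFRA and COL4A1, summed to 276 to 375 CPM in PXGL, 349 to 366 in N2B27 and 588 to 604 with the inhibitor. The laminin gene LAMB1 and COL4A1 made up most of the last sum, at 354 ± 9.72 and 128 ± 2.89 CPM, while PDGFRA was at 5.21 ± 0.523, 5.74 ± 0.700 and 5.56 ± 1.24 CPM in the 3 groups. Another laminin gene, LAMA1, was at 110 ± 27.7, 28.0 ± 3.72 and 49.4 ± 3.73 CPM, and BMP2 at 5.58 ± 1.37, 0.251 ± 0.0992 and 4.08 ± 0.431 CPM. LAMA1, BMP2 and HNF4A averaged less with the inhibitor than in PXGL, and the other markers of this list averaged more. The trophectoderm markers also differed between groups, at 223 to 262, 937 to 943 and 1090 to 1130 CPM, mostly through the keratin gene KRT18, with CGA, CGB3 and VGLL1 at 0 in every library. The definitive endoderm markers summed to 18.7 to 22.5, 23.1 to 27.3 and 99.0 to 108 CPM. MIXL1 and CER1 made up most of the last sum, at 65.2 ± 3.81 and 24.3 ± 1.83 CPM. HHEX was at 10.1 ± 1.84, 0.436 ± 0.175 and 1.94 ± 0.259 CPM, and SOX17, FOXA2, GSC and LHX1 averaged under 1 CPM in every group. The fibroblast markers summed to 14.7 to 20.03, 165 to 179.6 and 85.8 to 90.2 CPM. Among the fibroblast genes THY1 was at 0.623 ± 0.164, 118 ± 8.39 and 43.5 ± 3.13 CPM. COL1A2 was at 2.48 ± 0.259, 28.3 ± 1.28 and 23.3 ± 0.687 CPM. COL1A1 and PDGFRB also averaged more in N2B27 and with the inhibitor than in PXGL. POSTN averaged under 1 CPM in every group, and DCN, LUM and COL3A1 were at or near 0. These sums do not show whether cells of these types were present. Any part of such cells in the levels of APOE, APOC1, APOB and DAB2 was not tested.

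Of 21 genes for lipoprotein assembly, lipid transfer and secretion 13 had enough counts for the test. The inhibitor raised 2 of them and lowered 1, and 10 did not pass (median 0.09), where 24.7% of all genes were called. SOAT1, which esterifies cholesterol for storage, fell 8.85-fold from PXGL to N2B27, from 73.8 ± 1.05 to 8.30 ± 2.47 CPM, and rose 2.24-fold with the inhibitor. The endothelial lipase gene LIPG rose 4.48-fold from PXGL to N2B27 and a further 2.04-fold with the inhibitor, to 9.28 ± 1.21 CPM, 9.15-fold above PXGL. From PXGL to N2B27, 3 of the 13 rose, 6 fell and 4 did not pass (median -0.23), where 27.3% of all genes rose and 28.7% fell.

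Receptors and adaptors of endocytosis were mostly expressed, 29 of 32 being tested. With the inhibitor 5 rose, 7 fell and 17 did not pass (median -0.10), where 14.2% of all genes rose and 10.6% fell. Without PXGL replicate 1, 7 rose and 12 fell, in a fit that called 5771 genes against 3752. Besides LRP2, the transferrin receptor TFRC rose 1.41-fold to 386 ± 15.8 CPM. From PXGL to N2B27, 10 rose, 8 fell and 11 did not pass (median 0.07), where 27.3% of all genes rose and 28.7% fell. VLDLR, a receptor for APOE-bearing particles, rose 3.77-fold to 31.9 ± 2.76 CPM and the sorting receptor SORL1 rose 2.86-fold, over the same step at which APOE fell. With the inhibitor SORL1 fell (log2 -0.44, edgeR adjusted p = 0.00355).

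The list of lysosomal and aspartic proteases holds aspartic proteases like CTSE, lysosomal proteases of other classes, most of them cysteine cathepsins, and the membrane proteins LAMP1 and LAMP2. Of 23 listed symbols 22 matched the table and 19 were tested. From PXGL to N2B27, 14 fell and 1 rose, leaving 4 that did not pass (median -0.63 on the log2 scale, against -0.03 over all genes, of which 28.7% fell), with 12 to 16 falling under other scalings or without PXGL replicate 1. With the inhibitor, 10 rose, none fell and 9 did not pass (median 0.32, against 0.01), where 14.2% of all genes rose. With DESeq2 size factors, or without PXGL replicate 1, 10 rose and 1 fell. Both comparisons use the same N2B27 libraries, so their opposite directions are not independent. Between the inhibitor group and PXGL directly, 1 was higher, 9 were lower and 9 did not pass (median -0.16), where 28.1% of all genes were higher and 28% lower. Of the aspartic proteases tested, BACE1 and BACE2 rose with the inhibitor, and CTSD and NAPSA did not pass. BACE1, the beta-secretase, was at 30.4 ± 4.17 CPM in PXGL, 8.13 ± 1.003 in N2B27 and 22.8 ± 3.16 with the inhibitor, and rose 2.80-fold between the latter (adjusted p = 1.18e-06). BACE2 rose 2.26-fold to 8.97 ± 1.54 CPM and CTSO rose 3.15-fold to 1.81 ± 0.653 CPM. CTSS fell 11.2-fold from PXGL to N2B27 and was at 0.495 ± 0.257 CPM with the inhibitor. Against PXGL, CTSF and CTSK were 3.71-fold and 2.11-fold lower with the inhibitor and were called. The 3 cathepsins with the highest PXGL levels, chosen after their values were seen, were CTSC, CTSB and CTSD. CTSC went from 359.6 ± 28.2 to 113 ± 8.32 CPM on leaving PXGL and to 171 ± 5.37 CPM with the inhibitor. CTSB went from 238 ± 9.62 to 115 ± 6.77 and to 180.3 ± 1.97 CPM, and all of these differences passed. CTSD was at 173 ± 18.1, 158 ± 1.48 and 153 ± 5.49 CPM, and neither step passed.

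**Figure D4:**
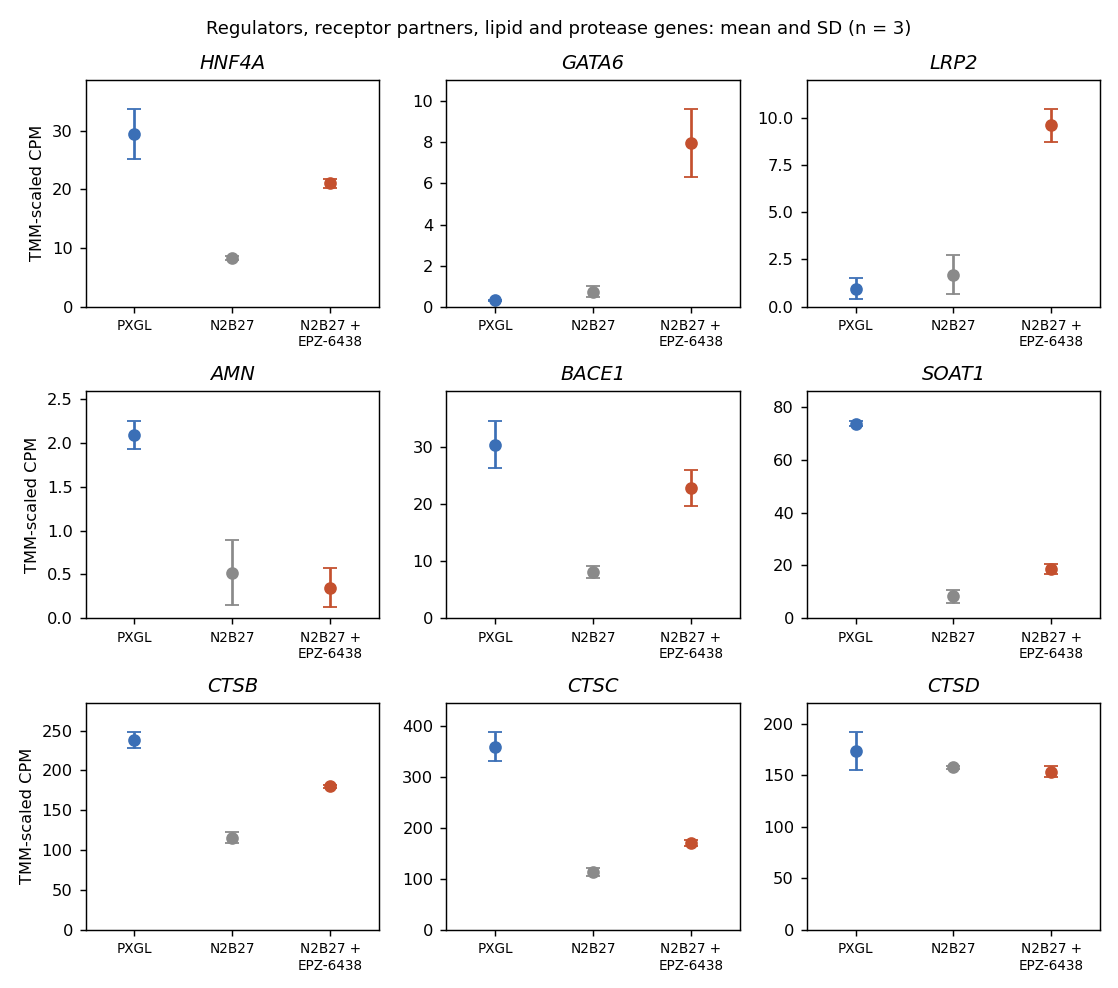
TMM-scaled CPM (vertical axes, from 0) of regulators, receptor partners and lipid and protease genes in the 3 groups, as the mean and SD of 3 libraries. HNF4A, BACE1, SOAT1, CTSB and CTSC are lowest in N2B27, GATA6 and LRP2 are highest with the inhibitor, and AMN is highest in PXGL.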

How the data were processed

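Libraries were made from Trizol-extracted RNA after rRNA depletion, per the labels' protocols, although the molecule label reads polyA RNA. The values deposited by the authors are expected counts per gene symbol, in 1 table, and include fractional values. Trim Galore, STAR 2.7.6a, DESeq2 and hg38 are named per the submitters' processing notes; the sources used here do not give the counting program or its strand setting. In each library 7.13% to 8.09% of values were fractional, and all were rounded. The 10 genes and the context lists were chosen with earlier results of these data known.

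With edgeR 4.0.16 (R 4.3.3), filterByExpr kept 15179 genes out of the 22640 that had counts. A single fit covered all 9 libraries, in a quasi-likelihood model with TMM scaling, and p-values were adjusted by Benjamini-Hochberg over all genes, with calls at 0.05 and no fold threshold. SE is the log2 fold change over the root of F. The sources do not say whether libraries are separate cultures, so p-values measure only their spread. The code was tested on simulated data. Alternatives were other scalings, filters, fits, DESeq2 1.42.0 and left-out libraries. Named are all 10 genes, fixed reference and neighbouring genes, the 2 nearest genes in pattern per called gene, and from each list up to 3 called genes with the largest change, no overlap and at least 1 CPM. A few genes that this rule names are not reported here. Positions and lengths came from GENCODE 29, and promoter letters from RefSeq.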

Additional observations from a re-analysis of the deposited data

How the results depend on the processing

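Of 204 values of the tested members under 17 alternatives, 192 stayed on their side of the threshold, 6 lost their call, 6 gained one and none changed direction. All 4 members kept their calls for N2B27 against PXGL and for the inhibitor against PXGL under every alternative run. The inhibitor against N2B27 was less stable: 4 members and 5641 genes were called when only those groups were fitted, against 2 and 3752. Leaving out 1 library gave 0 to 4 members and 2762 to 5771 genes, with the highest counts of both without PXGL replicate 1 and no member called without N2B27 replicate 2. For N2B27 against PXGL these ranges were 4 members and 7663 to 9506 genes, and for the inhibitor against PXGL 4 members and 7599 to 9452 genes. With no low-count filter, 1 further member, CTSE, was called, against PXGL. Replicate numbers did not pair the libraries (correlations of deviations between same-numbered libraries of -0.03 to 0.04). With a replicate block, 3694 genes and 2 members were called for the inhibitor against N2B27, 8507 and 4 for N2B27 against PXGL and 8489 and 4 for the inhibitor against PXGL. Depth limits the 6 genes with 13 or fewer counts, for which only an upper bound or a ratio with a wide interval can be given. Each group has 3 libraries of 1 cell line.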
